A study of Sus scrofa with 48 samples.

Results

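The genes described here are the heat shock proteins and related chaperones on a porcine array: every gene whose symbol starts with HSP, DNAJ or CCT followed by a digit, plus TCP1, STIP1 and HSF1, without HSPG2, which encodes a matrix proteoglycan. AHSA1 was also sought and had no probe set with that symbol. The rule gave 54 of the 6765 genes that had a probe set with a single symbol, and each gene was read from its brightest probe set over all arrays, as the log2 of its signal intensity. By textbook role they were 7 small heat shock proteins, 8 cytosolic members of the HSP70 and HSP110 families, 4 HSP90 proteins and co-chaperones, 6 subunits of the chaperonin TRiC, 16 cytosolic and nuclear J-proteins, 6 mitochondrial chaperones, 6 chaperones of the endoplasmic reticulum and the transcription factor HSF1. The rule goes by symbol, so it took these mitochondrial and endoplasmic reticulum genes along with the cytosolic ones. HSPB11 was counted among the small heat shock proteins by its symbol only. Placing DNAJB14 and DNAJC14 with the cytosolic and nuclear J-proteins was likewise a choice.

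Chaperones hold other proteins in a state in which they can fold, cross membranes, assemble or be degraded. HSP70 proteins bind unfolded stretches in a cycle driven by ATP, J-proteins deliver clients to them and start ATP hydrolysis, HSP90 finishes the folding of kinases and steroid receptors, and the TRiC ring encloses actin and tubulin. Small heat shock proteins hold unfolding proteins without ATP, and under heat or other stress HSF1 switches on HSP70, HSPH1, DNAJB1 and several others.

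Liver and fat came from 24 Yorkshire gilts aged 6 months, all from a line bred for high feed efficiency, measured as low residual feed intake, with 1 array per tissue and gilt. Gilts were homozygous for either the N298 or the wildtype D298 form of MC4R, a melanocortin receptor of the brain that acts on appetite, and were fasted for 3 days or fed ad libitum. The 8 groups were thus fat of fasted N298, fasted D298, fed N298 and fed D298 gilts, and liver of the same 4 kinds, with 6 arrays each. The labels do not say which fat depot was sampled, and both tissues hold several cell types.

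The signals had been scaled to a common mean, and the arrays' median signals were 159.5 to 192.7 in fat and 122.7 to 149.2 in liver. Marker genes went with the tissue labels, since all 8 adipocyte markers were higher in fat and all 12 hepatocyte markers were higher in liver. All 12 skeletal muscle and all 7 fibroblast markers were also higher in fat, and all 8 macrophage and all 8 lymphocyte markers were higher in liver. The part of these cell types in the tissue differences was not tested. No array was a copy of another. Precision is limited by the number of arrays, 6 in a group, and p-values measure the spread between gilts. In fat 49 of the 54 chaperone genes were brighter than the median probe set, and the dim ones were DNAJC6, DNAJC9, HSPB3, HSPB7 and HSPBP1. In liver 46 were, and the dim ones were DNAJA4, DNAJC6, HSPA12A, HSPA2, HSPA6, HSPB3, HSPB7 and HSPBP1. Differences are given as log2 with the standard error of the limma model, and a gene was called when its p-value, adjusted by Benjamini and Hochberg over all 23999 probe sets, was under 0.05.

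The first question was how fat responded to 3 days without feed. HSPB1, the small heat shock protein HSP27, was 2.44-fold lower in fasted fat and changed most among the called chaperone genes. Of the 6 mitochondrial chaperones 5 were lower, among them the HSP60 chamber and its HSP10 lid, and of the 4 HSP90 genes and co-chaperones 3 were lower. Of the heat-inducible genes, HSP70.2, HSPH1 and DNAJB1 were not called, while HSP90AA1, the inducible cytosolic HSP90, was called lower. None of the 6 endoplasmic reticulum chaperones was called. DNAJC2, a J-protein of the ribosome, rose.

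In all, 17 of the 54 genes were called in fat, 3 higher and 14 lower, which is 31.5% of them. Among all genes with a single symbol 34.2% were called, 15.3% higher and 18.9% lower, so the total share was close to this background. Of the chaperone genes 5.56% were called higher and 25.9% lower. Their median log2 change was -0.08, against 0.01 over all genes. With arrays centred on their medians instead, 1 chaperone gene was called higher and 19 lower, and over all probe sets the share of calls that were higher was 43.2%, against 60.1% with the deposited scaling. In whole tissue, fewer cells of a type and less RNA per cell cannot be told apart. Markers of other cell types moved with fasting in fat: 6 of 9 endothelial markers were higher, 3 of 7 fibroblast markers were lower and 1 was higher, and the summed endothelial signal was 15504 to 26372 in fasted and 11415 to 17600 in fed fat. The 3' to 5' signal ratio of GAPDH, a measure of RNA integrity, had a median log2 of 1.82 in fasted and 1.22 in fed fat, while that of actin was 1.73 in fasted and 1.66 in fed fat. The part of the cell types in the chaperone results was not tested. With a 3' to 5' ratio as a covariate, 20 chaperone genes were called, and 16 of them were among the 17.

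**Figure D1:**
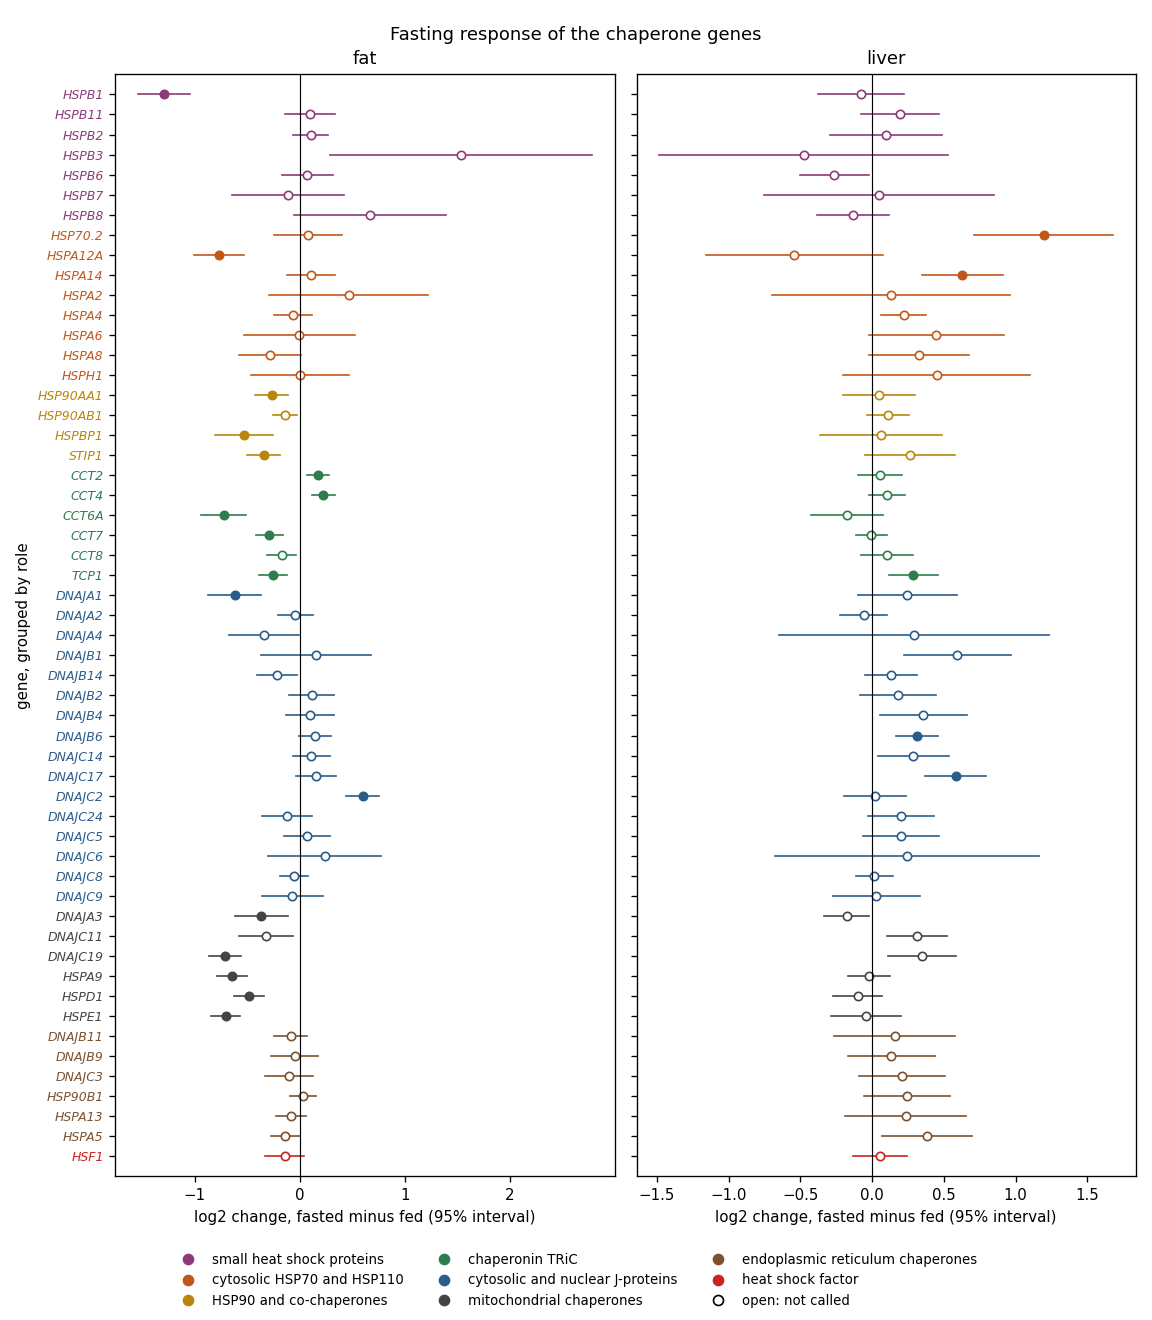
Log2 change with fasting of all 54 chaperone genes in fat (left panel) and liver (right panel), with 95% intervals of the model over 24 arrays per tissue. Filled points were called and open ones were not, and colours give the role. In fat the filled points of the mitochondrial and HSP90 groups lie left of 0, and in liver the 5 filled points lie right of 0.

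HSPB1 had signals of 1579 to 3946 in fasted fat, with a median of 2747, and of 4854 to 8698 in fed fat, with a median of 6557. All 12 fasted gilts lay below all 12 fed gilts. The log2 change was -1.29 ± 0.12 (SE, n = 12 and 12, limma adjusted p = 1.26e-07), and it was called in all 18 alternative settings, at -1.38 to -1.14. Such a complete separation towards lower values was found in 2.45% of all genes. Among the chaperone genes it was found in 2, HSPB1 and HSPE1.

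The other small heat shock proteins under the symbol rule gave no call in fat. CRYAB, a small heat shock protein outside the rule, was called lower and is given below with the partner genes. HSPB6, also called HSP20, changed by 0.07, HSPB2 by 0.10, HSPB7 by -0.11 and HSPB11 by 0.10. HSPB3, which is best known from muscle, had an estimate of 1.53 ± 0.60 with an adjusted p of 0.0674, which ran between 0.65 and 2.27 over 17 alternatives and was called in 8 of them, on dim signals of 2.8 to 99.5 in fasted and 3.6 to 44.7 in fed fat. HSPB8, the partner of the co-chaperone BAG3, had 108.5 to 751.8 in fasted fat and 54.4 to 447.5 in fed fat, a change of 0.67 ± 0.35 (adjusted p = 0.177). The fasted and fed ranges overlapped for both genes, although 6 of 12 fasted gilts lay above all fed ones in HSPB3.

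Both genes were high on the fat arrays with much skeletal muscle marker signal. The summed signal of 12 muscle markers ran from 461.9 to 125591 in fasted and from 376.1 to 82856 in fed fat, with medians of 8627 and 13497, and none of the markers was called. The highest HSPB8 signal, 751.8, and the highest HSPB3 signal, 99.5, came from the same fasted N298 gilt, number 6, whose muscle sum was 117222. The largest muscle sum belonged to fasted D298 gilt 6, which had 581.0 for HSPB8 and 93.3 for HSPB3. With the muscle sum as a covariate, a setting chosen after seeing the data, the change of HSPB8 was 0.66 (adjusted p = 0.0195) and that of HSPB3 was 1.52 (adjusted p = 0.00903), so both were then called. HSPB1 kept a change of -1.29 in that fit (adjusted p = 1.98e-07).

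**Figure D2:**
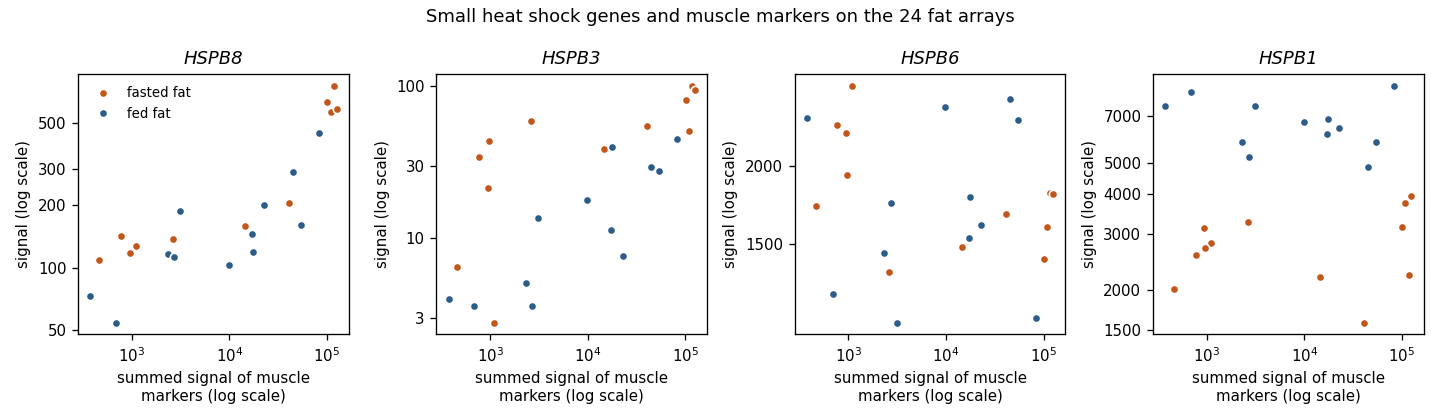
Signal of 4 small heat shock genes against the summed signal of 12 muscle markers on the 24 fat arrays, both axes on a log scale, fasted and fed gilts in different colours. HSPB8 and HSPB3 reach their highest signals, 751.8 and 99.5, at a muscle sum of 117222, while fasted and fed gilts stay apart in HSPB1 along the whole axis.

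The mitochondrial chaperones fell as a nearly complete group in fat, with 5 of 6 lower and a median change of -0.57. HSPE1, the HSP10 lid of the HSP60 chamber, had signals of 8073 to 12451 in fasted fat, with a median of 9291, against 13480 to 19461 with a median of 15545 in fed fat. The groups did not overlap. The change of HSPE1 was -0.70 ± 0.07 (adjusted p = 1.72e-07). HSPD1, the HSP60 chamber itself, had 8021 to 11656 in fasted fat with a median of 9081, and 10567 to 16364 in fed fat with a median of 12986. For HSPD1, 9 of 12 fasted gilts lay below all fed gilts, and the change was -0.49 ± 0.07 (adjusted p = 2.05e-05).

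HSPA9, the HSP70 of the mitochondrial matrix that pulls proteins in through the inner membrane, had 4089 to 5283 in fasted fat with a median of 4543, and 5142 to 10738 in fed fat with a median of 7227. A single fed gilt reached into the fasted range. HSPA9 changed by -0.64 ± 0.07 (adjusted p = 7.42e-07), and its 2 other probe sets by -0.81 and -1.06, both called. DNAJC19, the J-protein partner of this import motor, had 915.3 to 1711 in fasted fat with a median of 1106, and 1396 to 2413 in fed fat with a median of 1875. With 10 of 12 fasted gilts below all fed gilts, DNAJC19 changed by -0.71 ± 0.07 (adjusted p = 4.44e-07).

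DNAJA3, a J-protein of the matrix, changed by -0.37 ± 0.12 (adjusted p = 0.0307), and its groups overlapped more, with 4 of 12 fasted gilts below all fed ones. It was called in 11 of 18 alternative settings. The call ended, for example, without the array of fasted D298 gilt 3 (-0.32, adjusted p = 0.0642), and the adjusted p was at most 0.110 over all settings. DNAJC11, a J-protein of mitochondria, was the member not called (-0.32, adjusted p = 0.0609), and its other probe set gave 0.61, also not called. In 9 of 18 alternative settings DNAJC11 was called. Some mitochondrial partner genes outside the symbol rule, picked after their values were seen, were lower as well. They were GRPEL1, the nucleotide exchange factor of HSPA9, by -0.37, the mitochondrial HSP90 TRAP1 by -0.32 and the protease LONP1 by -0.27. Values in fat of the other mitochondrial genes among the partners are not given, so these picked genes do not describe that group. Among all genes 18.9% were called lower.

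Of the 4 HSP90 genes and co-chaperones, STIP1, HSP90AA1 and HSPBP1 were called lower in fat and HSP90AB1 was not called. Taken by genotype, 3 of the 4 were called in N298 fat and none in D298 fat by limma, where none had an unadjusted p under 0.05 either, and the test of that difference called none of the 4. STIP1, also called HOP, which hands clients of HSP70 to HSP90, had 649.1 to 1231 in fasted fat with a median of 872.1, and 882.9 to 1451 in fed fat with a median of 1048. The ranges overlapped, with 6 of 12 fasted gilts below all fed gilts. STIP1 changed by -0.34 ± 0.08 (adjusted p = 0.00185) and was called in all 18 alternative settings. HSP90AA1, the inducible cytosolic HSP90, had medians of 12196 in fasted and 14719 in fed fat and changed by -0.27 ± 0.08 (adjusted p = 0.0129). Its 4 other probe sets gave changes between -0.72 and -0.20, 3 of them called. The call of HSP90AA1 ended without the gilts of number 3 (-0.18, adjusted p = 0.0888), without those of number 4 (-0.23, adjusted p = 0.0757) and with quantile normalization (-0.14, adjusted p = 0.0917).

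HSP90AB1, the constitutive form, was not called at -0.14 (adjusted p = 0.0663). It was called when arrays were centred on their medians, at -0.23, and its estimate turned to 0.04 with quantile normalization. HSPBP1, a nucleotide exchange factor of HSP70 measured here on a dim probe set, had 45.4 to 119.7 in fasted fat and 79.2 to 185.0 in fed fat, with medians of 96.1 and 129.1. It changed by -0.53 ± 0.13 (adjusted p = 0.00482).

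The TRiC subunits, which sit side by side in 1 ring, did not change in 1 direction in fat: of the 6 measured, 3 were lower and 2 higher. CCT6A had 1047 to 1998 in fasted fat with a median of 1304, and 1504 to 3020 in fed fat with a median of 2276. Of the fasted gilts 10 of 12 lay below all fed ones, and the change was -0.72 ± 0.10 (adjusted p = 2.49e-05). CCT7 changed by -0.29 ± 0.06 (adjusted p = 0.00105) and TCP1, which encodes the alpha subunit, by -0.26 ± 0.06 (adjusted p = 0.00447). CCT8 gave -0.17 and was not called, although it was called in 6 of 18 alternative settings.

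CCT4 and CCT2 were higher instead. CCT4 had 5418 to 7145 in fasted fat with a median of 6297, and 4878 to 5979 in fed fat with a median of 5311, and 9 of 12 fasted gilts lay above all fed ones. CCT4 changed by 0.22 ± 0.05 (adjusted p = 0.00317) and CCT2 by 0.17 ± 0.05 (adjusted p = 0.0155). Both calls were lost when arrays were centred on their medians, at 0.14 for CCT4 and 0.09 for CCT2. The other probe set of CCT4 gave 0.20 and was not called. The call of CCT2 was also lost without the gilts of number 4 (0.15, adjusted p = 0.0774) and of number 5 (0.17, adjusted p = 0.0533).

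Cytosolic HSP70 and HSP110 genes were mostly not called in fat, with 1 of 8 lower. That gene was HSPA12A, a distant relative of HSP70, which had 408.2 to 684.1 in fasted fat with a median of 520.7, and 559.3 to 1128 in fed fat with a median of 993.8. It changed by -0.77 ± 0.12 (adjusted p = 4.07e-05), with 9 of 12 fasted gilts below all fed ones. HSP70.2 is the pig symbol for a stress-inducible HSP70, listed in RefSeq with the synonyms HSPA1A and HSPA1B. It had 5104 to 21709 in fasted fat with a median of 19264, and 10187 to 20579 in fed fat with a median of 16676, a change of 0.08 ± 0.16 (adjusted p = 0.775).

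HSPH1, the inducible HSP110, changed by 0.01 (adjusted p = 0.992), and HSPA8, the constitutive HSP70, by -0.28 (adjusted p = 0.160). The other probe sets of HSPA8 gave 0.31, 0.30 and -0.02, and none was called. HSPA4, an HSP110 relative, changed by -0.06 on its brightest probe set, and 1 of its 2 others was called lower at -0.69. HSP70 genes are alike in sequence, and the array can mix their signals, so the assignment of a signal to HSP70.2, HSPA6, HSPA2 or HSPA8 is uncertain.

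Of the 16 cytosolic and nuclear J-proteins 1 was higher and 1 lower in fat. DNAJC2, which works at the ribosome with HSPA14, had 608.9 to 1001 in fasted fat with a median of 832.7, and 436.4 to 659.3 in fed fat with a median of 541.9. All but 1 of the fasted gilts lay above all fed gilts. DNAJC2 changed by 0.60 ± 0.08 (adjusted p = 5.52e-06), and its other probe set by 0.67, also called. DNAJA1, a general partner of HSP70, changed by -0.62 ± 0.12 (adjusted p = 0.000665) on its brightest probe set, while its other probe set gave 0.36 and was not called. Averaged over both probe sets DNAJA1 changed by -0.13 and the call ended. DNAJB1, the inducible J-protein, changed by 0.15 (adjusted p = 0.723).

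The remaining J-proteins gave changes between -0.34 for DNAJA4 and 0.24 for DNAJC6, and none was called. DNAJB6 changed by 0.14 on its brightest probe set, and 2 of its others were called, at 0.33 and 0.57. The endoplasmic reticulum chaperones stayed within -0.14 for HSPA5, also called BiP, and 0.03 for HSP90B1, the HSP90 of that compartment. HSF1 changed by -0.14 ± 0.09 (adjusted p = 0.281), and its other probe set by 0.13, also not called.

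**Figure D3:**
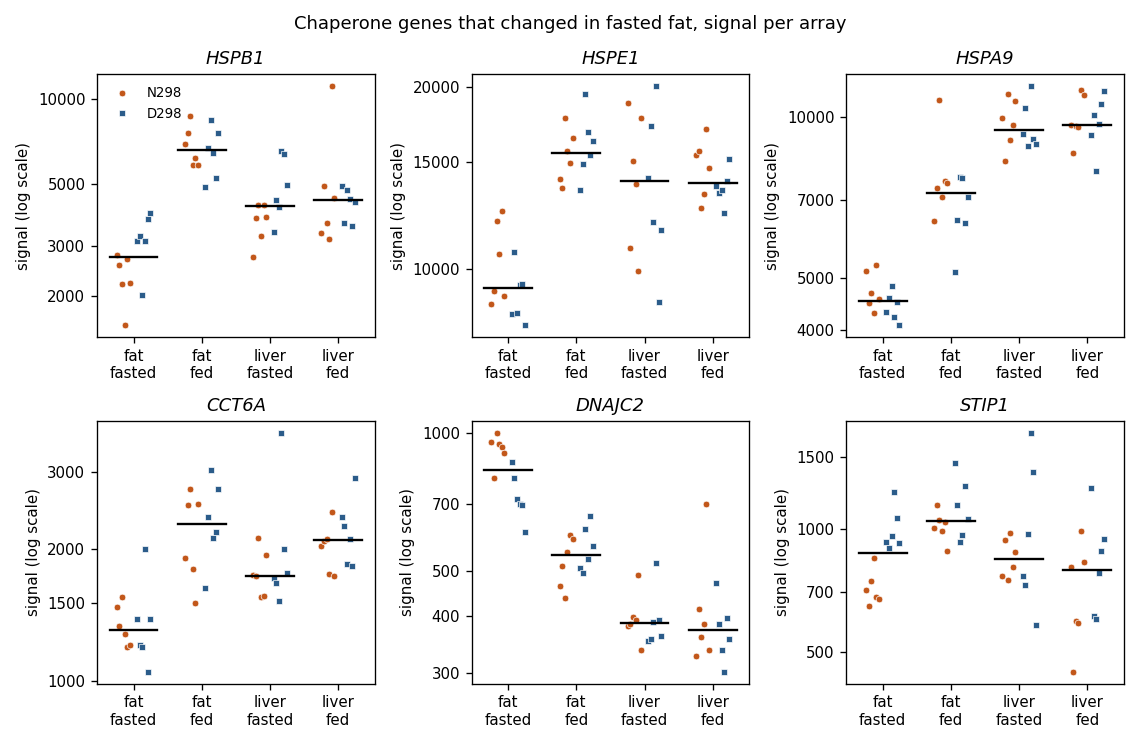
Signal on a log scale of 6 genes called in fasted fat, on each array of fasted and fed fat and of fasted and fed liver, N298 gilts as circles and D298 gilts as squares, with the median as a bar. HSPB1 (fasted median 2747, fed 6557) and HSPE1 show no overlap between fasted and fed fat, and DNAJC2 is the gene that was higher in fasted fat.

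The wider chaperone network was read from a list of 48 partner genes named by hand, of which 36 were measured. In fasted fat 3 of the 36 were higher and 11 lower, with a median of -0.05. Among all genes 15.3% were called higher and 18.9% lower. The largest falls were FKBP4, a co-chaperone of HSP90 in steroid receptor complexes, by -1.07 ± 0.12 (adjusted p = 8.17e-07), CRYAB, the small heat shock protein alpha-B-crystallin, by -0.88 ± 0.12 (adjusted p = 1.89e-05), and SERPINH1, the collagen chaperone HSP47, by -0.63 ± 0.08 (adjusted p = 2.93e-06). HSBP1, which binds HSF1, also fell by 0.51 on the log2 scale. The rises were ST13, a partner of HSP70 and HSP90, by 0.34, UNC45A, the myosin chaperone, by 0.23 and BTF3, part of a complex that meets new chains at the ribosome, by 0.22.

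The same question was put to liver, and there the called chaperone genes were higher with fasting. HSP70.2 was 2.29-fold higher, and HSPA14, DNAJC17, DNAJB6 and TCP1 were higher by smaller amounts. The mitochondrial, endoplasmic reticulum, HSP90 and small heat shock groups had no called member. These 5 of 54 genes make 9.26%, all higher. Among all genes 7.20% were called, 4.09% higher and 3.10% lower, and 5 genes is a small count to set against these shares. No chaperone gene separated all fasted from all fed livers, a pattern found in 0.414% of all genes towards higher and 0.429% towards lower values. The median change of the chaperone genes was 0.15, against 0.00 over all genes, and 14 had an unadjusted p under 0.05, as did 23.1% of all genes.

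Markers of other cell types moved in liver too. The summed signal of 7 fibroblast markers was 7047 to 10215 in fasted and 10345 to 15581 in fed liver, without overlap, and POSTN was the 1 of the 7 called, lower at -0.54. The adipocyte marker FABP4, the muscle marker NEB and the macrophage marker CD5L were called higher, at 1.37, 1.32 and 0.24, and no hepatocyte marker was called. The part of these cell types in the chaperone results was not tested.

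HSP70.2 had signals of 3120 to 15606 in fasted liver with a median of 5573, and of 1622 to 8058 in fed liver with a median of 2388. A single fed D298 gilt, number 1, reached into the fasted range with 8058, and the other 11 fed gilts lay below all fasted ones. HSP70.2 changed by 1.20 ± 0.23 (adjusted p = 0.00298), and its 2 other probe sets by 1.12 and 0.86, both called. It was called in all 19 alternative settings, at 0.99 to 1.45, and without fed D298 gilt 1 the change was 1.36.

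HSPA14, an HSP70 that works at the ribosome with DNAJC2, had 198.9 to 474.9 in fasted liver with a median of 307.4, and 157.0 to 251.3 in fed liver with a median of 192.8. Of the fasted gilts 10 of 12 lay above all fed ones. HSPA14 changed by 0.63 ± 0.13 (adjusted p = 0.00670). Its partner DNAJC2 gave 0.02 in liver (adjusted p = 0.952). DNAJC17, a J-protein found with the splicing machinery, had 372.9 to 647.8 in fasted liver with a median of 450.8, and 243.6 to 387.3 in fed liver with a median of 310.5. For DNAJC17 9 of 12 fasted gilts lay above all fed ones, and the change was 0.58 ± 0.10 (adjusted p = 0.00109).

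DNAJB6, a J-protein that keeps polyglutamine proteins from clumping, changed by 0.31 ± 0.07 in liver (adjusted p = 0.0109). Its 3 other probe sets gave 0.18 to 0.26 and were not called. Its call ended without the gilts of number 3 (adjusted p = 0.0718) and of number 5 (adjusted p = 0.0537). TCP1 had 1829 to 3184 in fasted liver with a median of 2252, and 1717 to 2050 in fed liver with a median of 1848. It changed by 0.29 ± 0.08 (adjusted p = 0.0448), close to the threshold, and was not called in 9 of 19 alternatives. Among these were the fits without fasted D298 gilt 4 (0.23, adjusted p = 0.0626) and without fed N298 gilt 5 (0.30, adjusted p = 0.0507).

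The inducible DNAJB1 and HSPH1 had positive estimates in liver that did not pass, while the inducible HSP90AA1 gave only 0.05, also not called. DNAJB1 had 997.2 to 4442 in fasted and 722.7 to 2277 in fed liver and changed by 0.59 ± 0.18 (adjusted p = 0.0654). Without fed D298 gilt 1 it was 0.69 (adjusted p = 0.0216) and was called. HSPH1 had 398.7 to 3590 in fasted and 213.5 to 1686 in fed liver and changed by 0.45 ± 0.31 (adjusted p = 0.514). Among other HSP70 and HSP110 genes, HSPA8 changed by 0.33 (adjusted p = 0.336), HSPA6 by 0.45 (adjusted p = 0.330) and HSPA4 by 0.22 (adjusted p = 0.107). HSPA12A, dim in liver, had a negative estimate of -0.54 (adjusted p = 0.377).

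Neither HSPB1 (-0.07, adjusted p = 0.856) nor STIP1 (0.26, adjusted p = 0.399) was called in fasted liver. HSP90AA1 gave 0.05 and HSP90AB1 0.11. HSPD1 gave -0.10, HSPE1 -0.05 and HSPA9 -0.02, and the 6 endoplasmic reticulum genes gave estimates between 0.13 and 0.38, with HSPA5 the highest. HSF1 changed by 0.06 (adjusted p = 0.812). Of the 36 partner genes 1 was higher in fasted liver, BTF3 at 0.24, and 1 was lower, the mitochondrial disaggregase CLPB at -0.36. Among all genes 4.09% were called higher and 3.1% lower.

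**Figure D4:**
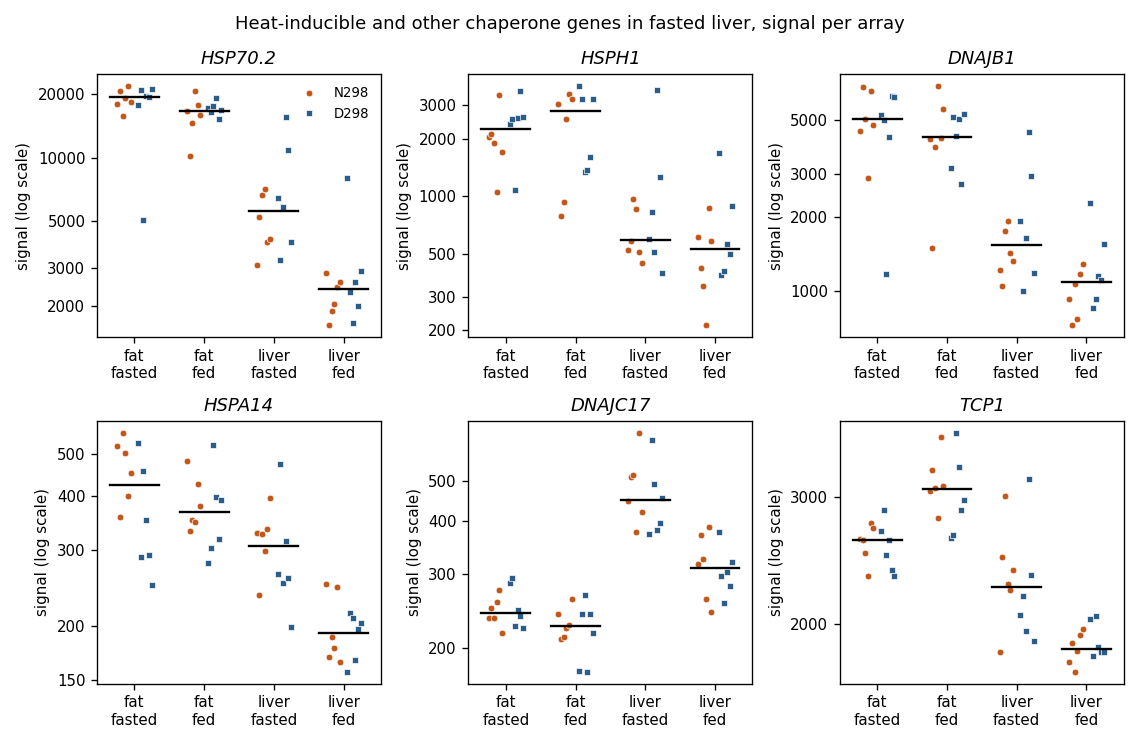
Signal on a log scale of 3 heat-inducible genes (HSP70.2, HSPH1, DNAJB1) and 3 others (HSPA14, DNAJC17, TCP1) on each array of fasted and fed fat and of fasted and fed liver, N298 gilts as circles and D298 gilts as squares, with the median as a bar. Fasted liver lies above fed liver in HSP70.2 (medians 5573 and 2388), and single D298 arrays stand far above the rest of their group in the upper panels.

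Single liver arrays carried high values of many chaperone genes at once. The array of fasted D298 gilt 4 was the highest of its 6 in 31 of the 54 genes, and that of fed N298 gilt 5 was the highest in 26. In fat the array of fasted D298 gilt 3 was the lowest of its 6 in 19 genes, and that of fasted N298 gilt 3 was the highest of its 6 in 19 genes. Without the array of fasted D298 gilt 3 and the 3 liver arrays of fasted D298 gilt 4, fed N298 gilt 5 and fed D298 gilt 1, in fits added after seeing the data, 18 genes were called in fat, 16 of them among the 17. In liver 5 were called, 4 of them as before, while TCP1 was lost (0.26, adjusted p = 0.0518) and DNAJB1 was gained (0.57, adjusted p = 0.0381). Without the gilts of number 3, which leaves out both of these fat arrays, 17 were called in fat, 16 of them among the 17.

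The fasting responses of fat and liver were also set against each other in a single model of the 48 arrays, in which the gilt was a random effect. In fat minus liver of the log2 fasting changes 17 of the 54 genes were called, 1 higher and 16 lower, which is 31.5%. Among all genes 24.0% were called, 8.91% higher and 15.1% lower. The median of the difference was -0.28, against 0.01 over all genes. Centring each array on its median gave 1 higher and 24 lower, and it moved the median of all probe sets to -0.02, against 0.12 with the deposited scaling.

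The smallest p-values were those of DNAJC19, HSPA9, HSPB1 and TCP1. DNAJC19 changed by -0.71 in fat and by 0.35 in liver, where it was not called, a difference of -1.06 ± 0.14 (adjusted p = 2.26e-07). HSPB1 differed by -1.22 ± 0.19 (adjusted p = 4.35e-06) and HSPA9 by -0.62 ± 0.10 (adjusted p = 3.36e-06). TCP1 was called in opposite directions, lower in fat and higher in liver, and differed by -0.55 ± 0.09 (adjusted p = 1.90e-05). HSP70.2 differed by -1.12 ± 0.29 (adjusted p = 0.00475), and the call was lost without the gilts of number 3 and of number 4, with an adjusted p of at most 0.0579 over all settings.

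Of the 6 mitochondrial chaperones DNAJC19, HSPA9, HSPE1 and HSPD1 were called lower in this contrast and DNAJA3 was not called. DNAJC11 was called lower at -0.63 on its brightest probe set, but its other probe set gave 0.98, not called, and the mean of both gave 0.17 (adjusted p = 0.720), so its direction is uncertain. The call of HSPD1 was lost with quantile normalization and without the gilts of number 4. STIP1 differed by -0.61 ± 0.17 (adjusted p = 0.0100), a call that was lost without the gilts of number 2. DNAJC2 was the gene with a higher response in fat, at 0.58 ± 0.13 (adjusted p = 0.000704). Of the 36 partner genes none was called higher in this contrast and 8 were lower, with FKBP4 at -0.80 and GRPEL1 at -0.62. Among all genes 8.91% were called higher and 15.1% lower.

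The next comparison was between the tissues themselves. Several HSP70 relatives were brighter in fat, and the endoplasmic reticulum and mitochondrial chaperones were mostly brighter in liver. Of the 54 genes 26 were higher and 20 lower in fat, which is 85.2%, while 80.3% of all genes were called, 46.9% higher and 33.4% lower. The share of chaperone genes called was thus near the background. The median difference was 0.13 in the chaperone genes and 0.14 over all genes. In fasted gilts 47 chaperone genes were called, 24 higher and 23 lower, beside 74.6% of all genes (42.5% higher and 32.2% lower). In fed gilts 44 were called, 29 higher and 15 lower, beside 72.8% (43.8% higher and 29.0% lower).

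The scaling of the arrays bears on these counts. The median of all probe sets was 0.26 with the deposited scaling, 0.03 after quantile normalization and -0.10 when arrays were centred on their medians. Centring gave 18 chaperone genes higher and 28 lower in fat, and quantile normalization 28 and 20. Over all probe sets the share of calls that were higher was 65.1%, 53.2% after quantile normalization and 45.3% after centring.

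HSPA6, known as an inducible HSP70 in humans, had 937.8 to 7031 in fat with a median of 4342, and 62.7 to 558.8 in liver with a median of 128.1. HSPA12A had 408.2 to 1128 in fat and 7.1 to 53.7 in liver, and HSPA2, known from the testis, had 232.5 to 2453 in fat and 4.1 to 74.7 in liver. None of these 3 genes overlapped between the tissues. Their median signals in liver lay below that of all probe sets, 130.1, and whether they were above background there was not tested, so the sizes and the order of these differences are uncertain. The differences were 4.71 ± 0.19 for HSPA6, 4.54 ± 0.16 for HSPA12A and 4.27 ± 0.27 for HSPA2, with adjusted p-values of 5.77e-27, 5.22e-29 and 2.04e-19. With 32 added to every signal they were 4.39, 3.47 and 3.34, all still called. DNAJA4 was likewise dim in liver, with 93.8 to 311.7 in fat and 5.8 to 63.0 in liver, and differed by 3.38 ± 0.24 (adjusted p = 3.50e-17). With 32 added DNAJA4 differed by 2.01, and its other probe set gave 0.69, also called higher.

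The heat-inducible genes HSP70.2, HSPH1 and DNAJB1 were also brighter in fat. HSP70.2 had 5104 to 21709 in fat with a median of 17749, and 1622 to 15606 in liver with a median of 3208, a difference of 2.16 ± 0.15 (adjusted p = 2.41e-18). HSPH1 differed by 1.73 and DNAJB1 by 1.67. HSF1, their regulator, was lower in fat at -0.19 ± 0.06 (adjusted p = 0.00453), although its other probe set gave 0.26 and was not called, and HSPA8 was not called at -0.23 (adjusted p = 0.0746).

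HSPB8 was the gene with the largest difference towards liver. It had 54.4 to 751.8 in fat with a median of 143.7, and 989.6 to 2789 in liver with a median of 2021, without overlap. The difference was -3.43 ± 0.20 (adjusted p = 7.00e-21). HSPB6 went the other way at 2.00 ± 0.09, also without overlap, while HSPB1 did not differ beyond its error over both feeding states (-0.03 ± 0.09, adjusted p = 0.791). HSPB1 differed by -0.64 in fasted gilts (adjusted p = 4.77e-05) and by 0.58 in fed gilts (adjusted p = 0.000208). All 12 muscle markers were higher in fat too, and the part of muscle in these tissue differences was not tested.

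All 6 endoplasmic reticulum chaperones had lower estimates in fat, and 5 were called. DNAJC3, which also restrains a kinase of the stress response, had 142.8 to 303.2 in fat and 552.7 to 1567 in liver, without overlap, and differed by -1.83 ± 0.08 (adjusted p = 1.26e-24). HSP90B1 had 3549 to 5297 in fat and 7802 to 24141 in liver, without overlap, and differed by -1.40 ± 0.07 (adjusted p = 2.96e-22). HSPA5 differed by -1.15 and DNAJB11 by -1.37, and DNAJB9 had the smallest difference of the 5 called genes. HSPA13 was not called (-0.22, adjusted p = 0.0667). With either other scaling all 6 were called lower.

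All 6 mitochondrial chaperones were called lower in fat. HSPA9 differed by -0.77, DNAJC19 by -0.93, DNAJA3 by -1.05, HSPD1 by -0.41 and HSPE1 by -0.19. HSPD1 and HSPE1 turned to higher in fat after quantile normalization, at 0.15 and 0.35. The call of HSPE1 was also lost without the gilts of number 1, without those of number 6, and without the 4 arrays that stood apart (-0.14, adjusted p = 0.0602). DNAJC11 differed by -1.38 on its brightest probe set and by 0.67 on the other, both called, so its direction is uncertain. The TRiC subunits went together more here, with 4 of 6 higher in fat and differences of 0.44 to 0.58 for these, while CCT6A was lower at -0.20, a call that was lost without the gilts of number 1 or of number 5. The higher calls of CCT4 and TCP1 were lost when arrays were centred, and the other probe set of CCT4 was called lower at -1.83.

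**Figure D5:**
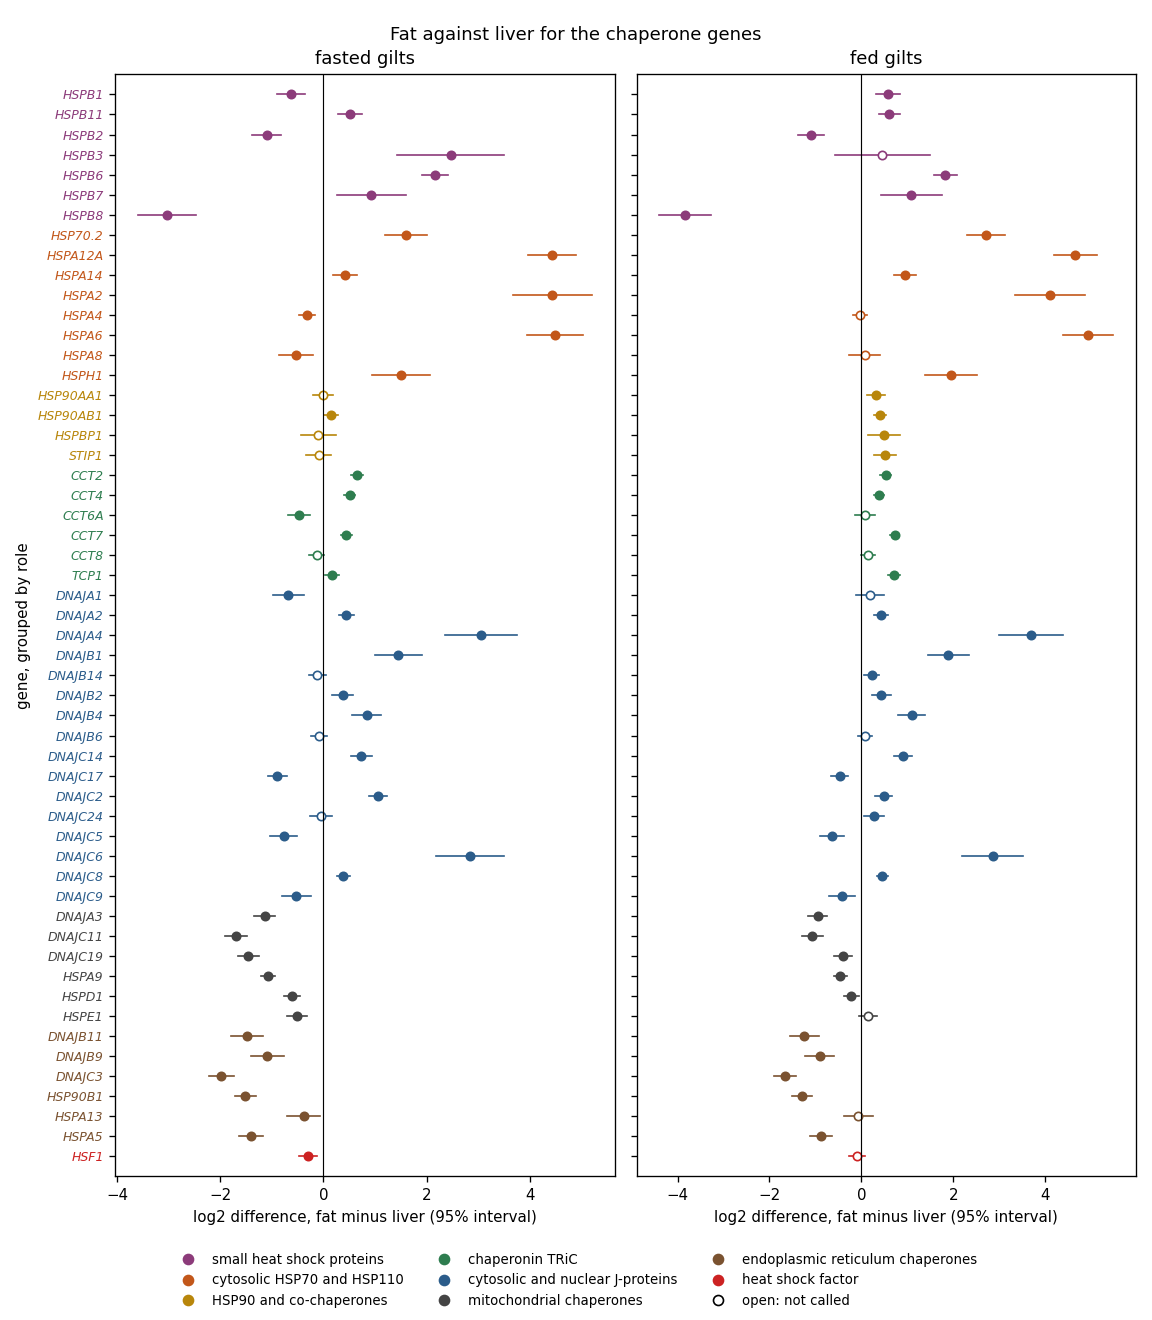
Log2 difference of fat minus liver for all 54 chaperone genes in fasted gilts (left panel) and fed gilts (right panel), with 95% intervals of the model over 48 arrays. Filled points were called, open ones were not, and colours give the role. HSPA6, HSPA12A and HSPA2 lie farthest to the right and HSPB8 farthest to the left in both panels, and HSPB1 changes side between the panels.

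A complete separation of the 24 fat arrays and the 24 liver arrays was found in 13 chaperone genes. The 6 higher in fat were DNAJA4, DNAJC6, HSPA12A, HSPA2, HSPA6 and HSPB6, where 12.5% of all genes separated in that direction. The 7 lower in fat were DNAJA3, DNAJB11, DNAJC11, DNAJC3, HSP90B1, HSPA5 and HSPB8, where 10.5% of all genes did.

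The last comparison was between the MC4R genotypes. No chaperone gene was called for N298 minus D298 in fat or in liver, nor was any probe set on the array (0.00% in each tissue). At an unadjusted p under 0.05 there were 4 of the 54 chaperone genes in fat and 2 in liver, beside 5.35% and 5.07% of all genes. STIP1 had the smallest p in fat, at -0.31 ± 0.08 with 95% limits of -0.47 and -0.15 (unadjusted p = 0.000526, limma adjusted p = 0.548). DNAJC19 was next at 0.24 ± 0.07 (adjusted p = 0.754). In liver the smallest p-values were those of DNAJB1 at -0.40 ± 0.18 and DNAJC8 at 0.13 ± 0.06, each with an adjusted p of 0.951.

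The fasting response did not differ between the genotypes at the threshold for any chaperone gene or probe set in either tissue by limma (0.00% called). At an unadjusted p under 0.05 there were 5 of the 54 chaperone genes in fat and 2 in liver, beside 6.73% and 6.62% of all genes. In fat the smallest were DNAJC2, with a response 0.44 ± 0.15 larger in N298 gilts (adjusted p = 0.805), and HSPBP1 at -0.68 ± 0.26 (adjusted p = 0.825). STIP1 was among the 5 as well at -0.33 ± 0.15 (adjusted p = 0.868). In liver the smallest were DNAJB2 at -0.64 ± 0.26 and CCT4 at 0.26 ± 0.12, each with an adjusted p of 0.850.

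Within each genotype the fasting response of fat was seen in 15 chaperone genes in N298 gilts, 2 higher and 13 lower, beside 22.3% of all genes (9.53% higher and 12.8% lower). In D298 gilts it was seen in 10, 1 higher and 9 lower, beside 19.1% of all genes (7.36% higher and 11.7% lower). HSPB1 changed by -1.55 ± 0.17 in N298 and by -1.03 ± 0.17 in D298 fat, and HSPE1 by -0.59 ± 0.09 in N298 and by -0.82 ± 0.09 in D298 fat. In liver 1 gene was called in N298 gilts, DNAJC17 at 0.61 ± 0.14 (adjusted p = 0.0314), and none by limma in D298 gilts, where 11 had an unadjusted p under 0.05, as did 16.2% of all genes. In N298 liver 2.47% of all genes were called, 1.52% higher and 0.946% lower, and in D298 liver 2.78%, with 1.39% in each direction.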

How the data were processed

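Affymetrix porcine arrays were hybridised with RNA of liver and fat from 24 gilts, extracted on RNeasy columns with DNase treatment and labelled by the one-cycle biotin protocol, per the labels' protocols. The deposited values are MAS5 signal intensities on a linear scale, and the submitters' processing notes name the tools affy and MAS5. On every array the mean intensity without the lowest and highest 2% of probe sets was 500, so the deposited arrays share a scale. Of 24123 probe sets 124 controls were left out and 23999 were tested. A single gene symbol was given for 10069, several for 198 and none for 13732, from GEO's platform annotation. The 54 chaperone genes had 87 probe sets, and 53 of them matched RefSeq under the same symbol.

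Intensities were analysed as log2 with nothing added, in limma 3.58.1 (R 4.3.3) with lmFit and eBayes with a trend. Fasting and genotype were tested in each tissue with the 4 groups and the replicate number as a block. Tissue differences came from a model of all 48 arrays in which the gilt was a random effect, with an estimated correlation of 0.0841. The Benjamini-Hochberg adjustment ran over the 23999 probe sets, and all printed p-values come from these models unless called unadjusted. Samples sharing a number in a tissue deviated together only weakly if at all. Their median correlation was 0.0170 in fat, at most 0.147, and 0.0075 in liver. Between samples of different numbers it was -0.0064 in fat and -0.0016 in liver. The labels do not say what the number marks.

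The members, the partner gene list and the marker lists were chosen with earlier results of these data known. Genes were named by a rule: 15 fixed names where measured, the 5 largest called rises and falls with fasting in each tissue, the 4 largest tissue differences in each direction, the 4 smallest p-values of the response difference, 2 genes per genotype contrast, and the 3 largest rises and falls of partner genes. Others stand where their role group is counted, and arrays and genes singled out beyond the rule were chosen after their values were seen. Quantile normalization, median centring, an added 32, a filter on dim probe sets, eBayes without trend, array weights, the mean of probe sets, the fit without the block, an RNA integrity covariate and the omission of each replicate number were alternatives. The fitting was tested on simulated data, with changes set in probe sets drawn from the whole array. Of 2-fold changes 52% were called for fasting in fat and 60% in liver. Of 1.5-fold changes 24% were called in fat and 34% in liver. Only 50 of 23999 probe sets were changed at each size, while in the data 6048 were called in fat and 1073 in liver. The simulated spread was pooled over both tissues. With so few changes the adjusted threshold was stricter than in the data, so these shares do not give the part of real changes missed. Figures were drawn with Matplotlib 3.10.9 after processing in pandas 2.3.3. No sequences are given.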

Additional observations from a re-analysis of the deposited data

Results flagged for a closer look

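The 32 named chaperone genes, some of them named for their results, were examined in each of the 8 groups of 6 arrays. In 20 of these 256 sets the highest or lowest signal lay far from the other 5. Chance alone gives about 1 in 20 for a single set. Genes read on the same array are not independent, and several flags fell on the same arrays, so the count cannot be set against that rate. The fat array of fasted D298 gilt 3 was the lowest in HSP70.2 at 5104.3, against 17755 or more on the other 5. It was also the lowest in DNAJB1 at 1165.7, in HSPA6 at 937.8, in HSPH1 at 1081.6 and in HSPB1 at 2008.6. The liver array of fasted D298 gilt 4 was the highest in HSP90B1 at 24141.1, against at most 13068 on the other 5, in CCT6A at 3675.5 and in DNAJC2 at 521.8. The liver array of fed N298 gilt 5 was the highest in HSPB1 at 11046.6, against at most 4899 on the other 5, in HSP90B1 at 18077.4 and in DNAJC2 at 701.8. The liver array of fed D298 gilt 1 had 8057.7 for HSP70.2, against at most 2924 on the other 5.

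The fat array of fed N298 gilt 2 was the lowest in DNAJB1 at 1500.2 and in HSPA8 at 3870.3. The fat array of fed N298 gilt 3 was the highest in HSPA9 at 10737.9 and in HSP90B1 at 5035.4, and that of fasted N298 gilt 3 was the highest in HSP90B1 at 5296.8. HSPB8 reached 751.8 in fat of fasted N298 gilt 6 and was lowest at 1345.6 in liver of fed D298 gilt 2. HSPA2 was lowest at 8.5 in liver of fasted N298 gilt 1.

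The fasting response differed between fat and liver, by the test of the difference itself, in these named genes. As fat minus liver of the log2 changes, the values were -1.22 for HSPB1, -1.06 for DNAJC19, -0.62 for HSPA9, -0.66 for HSPE1, -0.38 for HSPD1 and -0.63 for DNAJC11. They were -0.55 for TCP1 and also -0.55 for CCT6A, -0.61 for STIP1, -1.12 for HSP70.2, -0.52 for HSPA14 and -0.43 for DNAJC17. DNAJC2 had the opposite sign at 0.58. The other probe set of DNAJC11 gave 0.98, not called, and the mean of both gave 0.17, so the direction of DNAJC11 is uncertain. The mean of probe sets also ended the call of CCT6A, and quantile normalization that of HSPD1. Leaving out the gilts of 1 number ended some of these calls: those of CCT6A, DNAJC17 and HSP70.2 without number 3, of HSPD1, HSPA14 and HSP70.2 without number 4, of STIP1 and HSPA14 without number 2, of HSPA14 without number 5, and of HSPA14 and DNAJC17 without number 6.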

How the results depend on the processing

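The number of arrays, and in dim genes the signal over background, limit these results. Of the genes called with fasting in fat, HSPB1, HSPE1, HSPD1, HSPA9, DNAJC19, CCT6A, CCT7, TCP1, STIP1, HSPA12A and DNAJC2 were called in all 18 alternatives, and in liver HSP70.2, HSPA14 and DNAJC17 in all 19. For fasting in each tissue, the estimates of named genes that changed sign were those of genes not called. In fat they were HSP70.2 at -0.0058 and HSPH1 at -0.080 with centred arrays, HSP90AB1 at 0.043 with quantile normalization and HSPA8 at 0.076 as a mean of probe sets. In liver they were HSF1 at -0.36 and HSP90AA1 at -0.011 as means of probe sets, HSPE1 at 0.012 with centred arrays and HSPB1 at 0.038 without the 4 arrays that stood apart. Leaving out gilts gave, in fat, -0.030 to 0.34 for DNAJB1, -0.042 to 0.26 for HSP70.2 and -0.11 to 0.13 for HSPH1, and in liver -0.017 to 0.091 for HSF1, -0.078 to 0.13 for HSP90AA1, -0.15 to 0.041 for HSPB1 and -0.13 to 0.090 for HSPE1. It also gave 667 to 1104 called probe sets and 3 to 6 chaperone genes for fasting in liver (1073 and 5 with all arrays). The response difference had 11 to 21 chaperone genes (17 with all), the genotype in liver 0 to 2 probe sets and genotype by fasting in fat 0 to 4 (0 with all). Among genes called in the tissue difference, HSPD1 and HSPE1 turned with quantile normalization (0.15 and 0.35), HSP90AA1, HSP90AB1 and STIP1 with centred arrays (-0.21, -0.088 and -0.15), and CCT4, DNAJA1 and HSF1 as means of probe sets (-0.69, 0.87 and 0.035). In the response difference DNAJC11 and DNAJB14 turned as means of probe sets (0.17 and 0.043). The tissue difference had 10409 called probe sets among the brighter ones, against 17291 of all, since fewer were tested. The share of called probe sets that were higher was 43.2% with centred arrays against 60.1% for fasting in fat, 68.1% against 50.8% in liver, and 28.0% against 54.9% for the response difference. Without the replicate block 19 chaperone genes were called in fat, the 17 with CCT8 and DNAJC11 added, 5 in liver, and 1 probe set for the genotype in liver. In the fat arrays 9 of 24, and in the liver arrays 5 of 24, correlated best with arrays of their own number among the 6 numbers. The causes were not tested.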
